A study of Mus musculus with 136 samples.

Results

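The genes described here belong to the 7 solute carrier families that hold most of the plasma membrane and lysosomal amino acid transporters of the mouse. They were taken by symbol, as every gene of families Slc1, Slc3, Slc6, Slc7, Slc36, Slc38 and Slc43, which gave 64 of the 47643 genes measured. Slc1 had 7 members, Slc3 had 2, Slc6 had 21, Slc7 had 16, Slc36 had 4, Slc38 had 11 and Slc43 had 3. The name does not make each member an amino acid transporter. Slc6a2, Slc6a3 and Slc6a4 carry monoamines, Slc6a8 carries creatine, Slc6a6 carries taurine, Slc43a3 carries purine nucleobases, and Slc7a6os is a gene beside Slc7a6 on the opposite strand that encodes no carrier.

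At E8.5, 66 concepti each gave 1 RNA library from the embryo and 1 from the visceral yolk sac, the extraembryonic membrane that surrounds it. All dams were of the inbred NOD strain, in which diabetes arises without treatment in some females, and the labels name no transgene and no agent in any group. The concepti came from 10 litters of normal dams, with blood glucose of 105 to 164 mg/dl, and 12 litters of diabetic dams, with readings of 423 to 595 mg/dl and 1 litter beyond the range of the meter. At 5-6 somite pairs there were 17 concepti per maternal condition, from 10 normal and 9 diabetic litters. At 7-9 somite pairs there were 16 per condition, from 7 normal and 6 diabetic litters, and 1 diabetic litter, D24M15, gave 7 of its 16 concepti. Littermates share a dam, so the concepti of a group are not independent pregnancies.

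The libraries held 1017901 to 5658850 counts, each count being 1 RNA molecule marked by a molecular identifier and tagged near its 3′ end. Levels are given as normalised counts, which are counts divided by the size factor of the library and not by transcript length. All 10 markers of visceral endoderm were higher in yolk sac than in embryo at both stages, and all 6 neural and somitic markers were lower. In the embryo libraries the mean level of visceral endoderm markers was 1.57 to 4.87% of that in yolk sac at 5-6 somites and 1.304 to 3.31% at 7-9 somites. No library went against the sex in its label, but in 2 concepti, D28M27C and N28M07E, the embryo and the yolk sac were of different sex. The embryo library of D24M15G held 233 Xist counts beside 386 counts of Y-linked genes. Between a library and its technical duplicate, the median absolute log2 difference over well counted members was 0.10 to 0.17 in the 4 pairs. Results that change without these concepti are given both ways.

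Amino acid transporters move amino acids across membranes by exchange or together with sodium or protons, and each family has its own preferred substrates. The Slc7 light chains work only as pairs with a heavy chain of the Slc3 family, which brings them to the membrane. Before the placenta functions, the visceral endoderm of the yolk sac takes up maternal protein, breaks it down in lysosomes and passes amino acids on to the embryo. Some Slc36 and Slc38 members sit in the lysosome membrane, where they release amino acids and report them to the growth kinase mTORC1.

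Of the 64 members, 61 had at least 1 count and 3 had none in any library, namely Slc6a16, Slc6a21 and Slc36a3. A count of 0 allows up to 3 counts over all libraries at this depth. A further 15 had between 1 and 100 counts over all libraries. Enough counts for a test in at least 1 comparison were found for 35 members, and 29 were tested in none. The normalised counts of all members summed to a median of 3417 in embryos (range 2956 to 4006) and 4555 in yolk sacs (range 3284 to 5549).

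The embryo repertoire was led by system A, the sodium-coupled carriers of small neutral amino acids. Slc38a2 (ENSMUSG00000022462, chromosome 15, 96687392-96699730, GRCm38) had a median normalised count of 1219 in the 66 embryos (range 882 to 1600), Slc38a1 had 438 (193 to 735) and Slc38a4 had 356 (208 to 643). Slc38a2 exceeded Slc38a1 in 66 of 66 embryos, so the first place did not depend on the library. The taurine carrier Slc6a6 followed at 272, the heavy chain Slc3a2 at 182, its light chain Slc7a6 at 128 and the neighbouring gene Slc7a6os at 111. Slc38a10 at 88.1 and the glutamine exchanger Slc1a5 at 87.4 could not be ordered, since Slc38a10 was the higher in 31 of 66 embryos. Slc38a9, the arginine sensor of the lysosome, came next at 63.2.

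The yolk sac repertoire was headed by a heavy chain and its partner. Slc3a2 had a median of 580 (range 314 to 840) and Slc7a8, a light chain that exchanges neutral amino acids at the basal side of epithelia, had 577 (70.0 to 1076). Slc3a2 was above Slc7a8 in 37 of 66 yolk sacs and Slc7a8 above Slc38a2, at a median of 544, in 41 of 66, so these leading genes overlapped. Slc6a6 at 317, the branched-chain amino acid carrier Slc43a2 at 264, Slc38a6 at 223, Slc38a9 at 207 and Slc38a4 at 205 came next. Slc38a4 ranged widely, from 75.3 to 1161. The light chains Slc7a7 and Slc7a9 both had medians of 150, and Slc7a7 was the higher in 32 of 66 libraries. These are orders of tag counts, which for genes of one library reflect molecule numbers but not protein or transport.

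**Figure D1:**
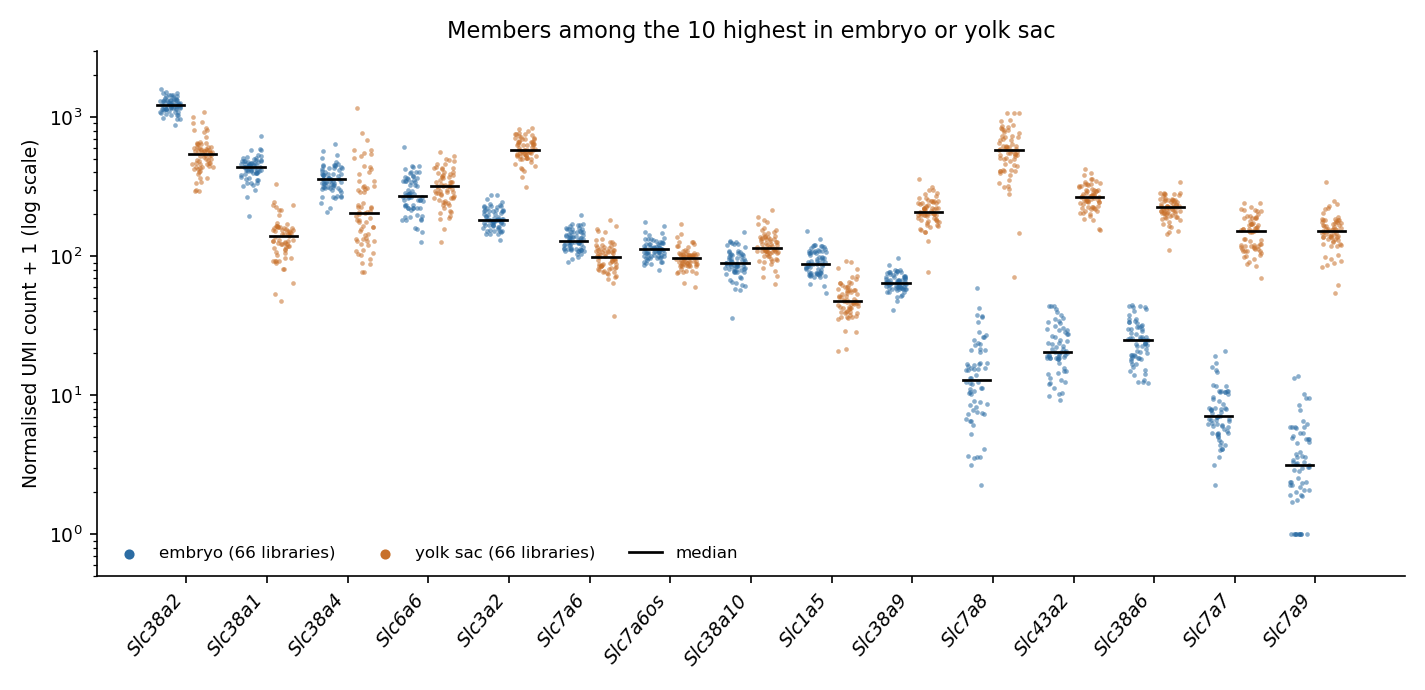
Normalised UMI count plus 1 of each member among the leading 10 of either tissue, on a log axis, with 1 point per library, 66 embryos and 66 yolk sacs, and a line at the median. Slc38a2 stands above the other members in every embryo, and Slc7a8, Slc7a7 and Slc7a9 are far apart between tissues.

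As shares of all member counts in a library, the Slc38 family held a median of 65.7% in embryo and 36.3% in yolk sac, and Slc38a2 alone 35.5% and 11.4%. Slc7 held 11.2% in embryo and 25.8% in yolk sac, with Slc7a8 at 0.361% and 12.6%. Slc3 held 5.37% in embryo and 13.1% in yolk sac, Slc43 held 2.12% and 8.58%, and Slc36 held 0.7996% and 2.38%. Slc6 was close between tissues at 9.27% and 9.96%, and Slc1 was 4.87% in embryo and 2.61% in yolk sac. Shares sum to the whole, so a larger share of one family goes with a smaller share of another.

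**Figure D2:**
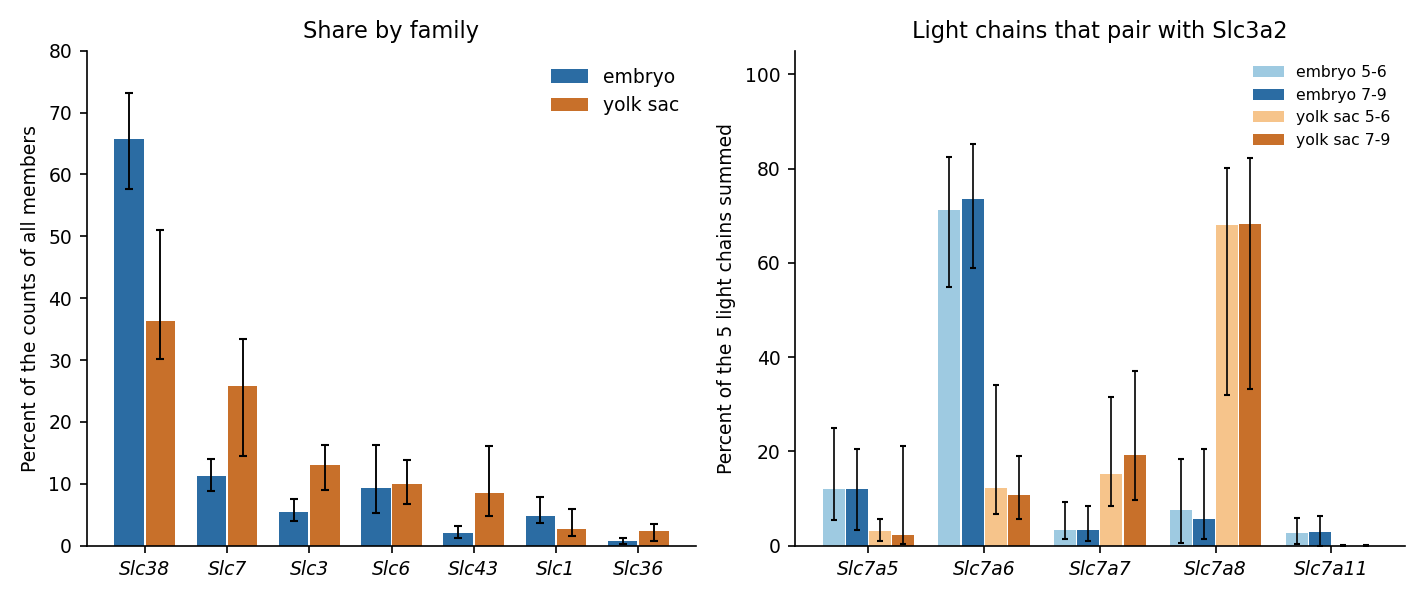
Share in percent of the counts of all members held by each family, and share of the 5 light chains held by each partner of Slc3a2, in embryo and yolk sac. Slc38 is the largest family in both tissues, with medians of 65.7% and 36.3%, and the main light chain is Slc7a6 in embryo and Slc7a8 in yolk sac.

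The comparison of tissues asked which members differed between the tissues at each stage. At 5-6 somites 21 of 32 members tested were higher in yolk sac and 7 were lower, and at 7-9 somites 21 were higher and 8 lower. Of all genes tested, 39.3% were higher and 39.7% lower at the earlier stage, and 38.6% higher and 42.6% lower at the later stage, by edgeR's quasi-likelihood test with Benjamini-Hochberg adjustment. With a difference of at least 2-fold, 16 members were higher and 5 lower at both stages, against 15.2% and 14.8% of all genes at 5-6 somites and 15.9% and 16.7% at 7-9 somites. The ranges of the tissues did not overlap for 12 members higher and 3 lower at 5-6 somites, where 6.86% and 5.99% of all genes did this. At 7-9 somites this held for 11 higher and 1 lower, against 7.62% and 6.69%. The median log2 difference over the members tested was 0.98 at 5-6 and 1.24 at 7-9 somites, and that over all genes tested was −0.00 and −0.04. Slc1a6, Slc6a4, Slc6a9, Slc6a13, Slc6a20b, Slc7a7, Slc7a9 and Slc38a5 were too low for any test in embryo alone, and Slc1a2 and Slc7a3 in yolk sac alone, so these could enter the tissue test only through the tissue where they were high. At 7-9 somites the same held for Slc7a8 and Slc36a4, which were too low in embryos of that stage alone. These are bulk tissues of different makeup, in which fewer cells of a type and less RNA per cell cannot be told apart.

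**Figure D3:**
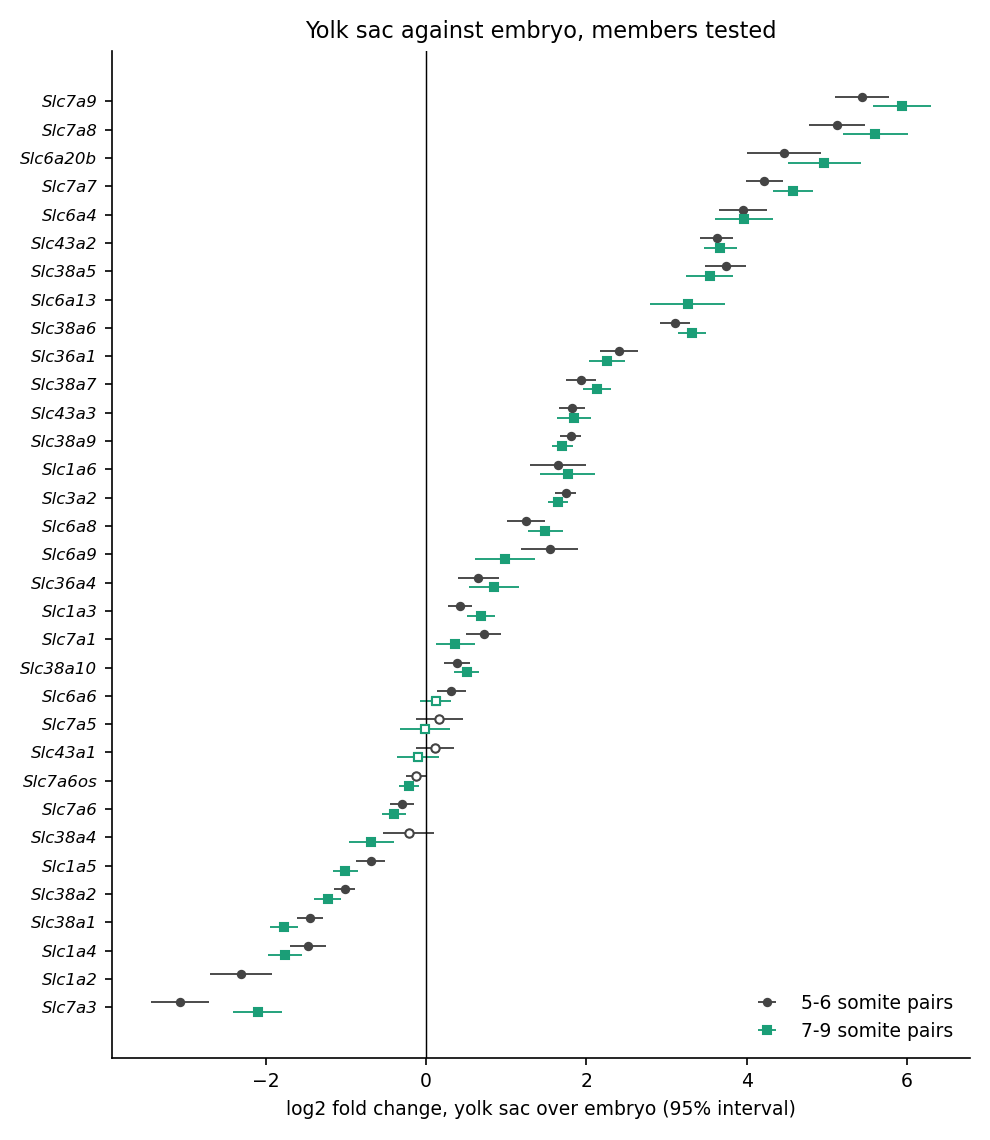
Log2 fold change of yolk sac over embryo for the members tested, with 95% intervals, at 5-6 and 7-9 somites. Slc7a9 and Slc7a8 are the highest at both stages and Slc7a3 is the lowest.

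Among carriers placed at the basolateral side of absorptive epithelia, Slc7a8, Slc3a2 and Slc43a2 were higher in yolk sac at both stages, and Slc43a1 did not pass the test. Of all genes tested, 39.3% were higher in yolk sac at 5-6 somites and 38.6% at 7-9. Slc7a8 was too low for a test in embryos of 7-9 somites alone. Of 8 carriers placed at the apical side, Slc7a9, Slc6a20b and Slc36a1 had enough counts for a test. Slc7a7, Slc7a9 and Slc6a20b had enough only through the yolk sac, so their levels are given as a description and no count over them is drawn on. Slc7a8 had a median of 14.6 in embryo (range 1.28 to 41.3) and 547 in yolk sac (70.0 to 1076) at 5-6 somites, and 9.47 against 587 at 7-9 somites. The log2 difference was 5.13 ± 0.18 (SE) and 5.60 ± 0.20, and the ranges did not overlap at either stage. Slc7a9, the light chain of the apical cystine and dibasic carrier, had medians of 2.71 in embryo and 141 in yolk sac at 5-6 and of 1.38 and 157 at 7-9 somites, a log2 difference of 5.44 ± 0.17 and 5.94 ± 0.18. Slc7a7, which exports dibasic amino acids basolaterally, had 6.69 against 115 and 5.83 against 169, a log2 difference of 4.22 ± 0.12 and 4.58 ± 0.12. Slc6a20b, a close relative of the imino acid carrier Slc6a20a, stood at a median of 0 in embryo and at 9.20 and 15.1 in yolk sac, differing by 4.47 ± 0.23 and 4.97 ± 0.23. At their 3′ ends Slc7a7 and Slc6a20b meet genes on the opposite strand, Oxa1l and Sacm1l, as do Slc7a5 and Slc6a9 with Gm20388 and B4galt2, so that counts of these pairs are uncertain where the counting did not use strand.

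Relative to yolk sac, the mean embryo level of Slc7a9 was 2.26% at 5-6 and 1.56% at 7-9 somites, that of Slc7a8 was 2.89% and 2.04%, and that of Slc6a20b was 3.67% and 2.72%. These values lay within the range of the 10 visceral endoderm markers given above. Slc7a7 at 5.50% and 4.18%, Slc43a2 at 8.32% and 7.91%, and the serotonin carrier Slc6a4 at 6.34% and 6.24% lay above it. The part that endodermal RNA in the embryo libraries has in these embryo levels was not tested.

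Promoters of Slc7a8, Slc7a9, Slc3a1, Slc7a7, Slc7a11 and Slc1a4 are printed as chosen examples. They show where short motifs of gut and endoderm regulators or of the amino acid response fall. Each of them holds a match, so they do not stand for the members at large. Slc6a20b, Slc6a4 and Slc43a2, also among the members most raised in yolk sac, are not printed, and Slc3a1 was too low for any test. Each runs 5′ to 3′ on the strand of the gene from 250 bases before to 50 after its start, as listed by RefSeq for GRCm38.p6, with matches in capitals. The motifs searched on both strands were CAAAGTCCA for HNF4, TTAATNATT for HNF1, AGATAAG for GATA factors and TGATGNAA for the amino acid response.
Slc7a8, chr14:54781837-54782136 (-): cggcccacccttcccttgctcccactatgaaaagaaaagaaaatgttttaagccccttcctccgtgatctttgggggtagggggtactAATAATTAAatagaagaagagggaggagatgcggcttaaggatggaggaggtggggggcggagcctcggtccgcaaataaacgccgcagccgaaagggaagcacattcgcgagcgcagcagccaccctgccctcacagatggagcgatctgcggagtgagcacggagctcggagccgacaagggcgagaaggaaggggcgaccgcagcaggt
Slc7a9, chr7:35448842-35449141 (+): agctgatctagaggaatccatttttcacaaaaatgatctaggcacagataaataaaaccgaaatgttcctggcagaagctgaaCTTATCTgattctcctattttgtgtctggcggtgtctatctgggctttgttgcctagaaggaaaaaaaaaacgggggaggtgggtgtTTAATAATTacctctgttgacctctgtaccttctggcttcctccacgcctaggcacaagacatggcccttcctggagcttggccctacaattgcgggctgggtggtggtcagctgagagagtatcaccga
Slc3a1, chr17:85028097-85028396 (+): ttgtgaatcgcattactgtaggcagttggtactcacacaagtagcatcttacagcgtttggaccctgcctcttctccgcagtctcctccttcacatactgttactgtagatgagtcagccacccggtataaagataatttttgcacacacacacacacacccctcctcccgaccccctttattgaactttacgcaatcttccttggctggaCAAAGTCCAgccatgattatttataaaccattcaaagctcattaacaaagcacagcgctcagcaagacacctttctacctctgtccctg
Slc7a7, chr14:54417895-54418194 (-): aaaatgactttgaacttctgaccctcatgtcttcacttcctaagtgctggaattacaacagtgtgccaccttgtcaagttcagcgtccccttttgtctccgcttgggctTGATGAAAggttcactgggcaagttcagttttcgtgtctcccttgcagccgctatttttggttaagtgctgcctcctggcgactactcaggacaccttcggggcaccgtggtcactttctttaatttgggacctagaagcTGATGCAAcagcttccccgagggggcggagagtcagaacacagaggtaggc
Slc7a11, chr3:50443564-50443863 (-): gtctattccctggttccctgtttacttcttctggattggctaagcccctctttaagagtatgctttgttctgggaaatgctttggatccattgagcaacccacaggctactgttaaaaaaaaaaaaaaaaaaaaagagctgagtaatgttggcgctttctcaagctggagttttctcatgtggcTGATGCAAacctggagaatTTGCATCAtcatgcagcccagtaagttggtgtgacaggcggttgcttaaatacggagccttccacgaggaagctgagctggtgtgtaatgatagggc
Slc1a4, chr11:20332664-20332963 (-): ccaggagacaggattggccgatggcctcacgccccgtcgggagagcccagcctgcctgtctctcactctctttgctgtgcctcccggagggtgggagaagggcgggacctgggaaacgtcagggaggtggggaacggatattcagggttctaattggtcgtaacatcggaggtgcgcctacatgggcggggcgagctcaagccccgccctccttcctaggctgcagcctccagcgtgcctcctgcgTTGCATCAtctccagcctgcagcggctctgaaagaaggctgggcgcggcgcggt
Promoters were listed for 46 of the 64 members, 67 promoters in all. HNF1 letters stood in 4 member promoters, of 3 genes (5.97%), and in 1.47% of all 32851 promoters. Those of HNF4 stood in 1 (1.49%) and 0.475%, and those of GATA factors in 2 (2.99%) and 3.04%. Those of the amino acid response stood in 5, of 4 genes (7.46%), and 3.97%. Overlapping promoters of Slc7a9 hold the same HNF1 site, and those of Slc7a7 share an amino acid response site, so these sites count more than once. Numbers this small do not set the members apart from all promoters. Slc7a8 and Slc7a9 each held an HNF1 match, and Slc7a9 a GATA match also. Slc7a11 held 2 matches to the amino acid response letters and Slc7a7 also held 2 in the promoter shown. In the 27 promoters of members higher in yolk sac at both stages, HNF4 letters stood in 0, HNF1 in 3, GATA in 1 and the amino acid response in 2. A match is a description of letters only.

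Heavy and light chains were compared because the pairs act together. Slc3a2 had a median of 196 in embryo and 631 in yolk sac at 5-6 somites and of 178 and 559 at 7-9 somites, a log2 difference of 1.74 ± 0.07 and 1.65 ± 0.06. The 8 light chains Slc7a5, Slc7a6, Slc7a7, Slc7a8, Slc7a9, Slc7a10, Slc7a11 and Slc7a13 summed to a median of 186 in embryo and 956 in yolk sac at 5-6 somites. At 7-9 somites the medians were 181 and 1063. This sum is not of partners of Slc3a2 alone, since it holds Slc7a9, which pairs with Slc3a1. Shares were taken over the partners Slc7a5, Slc7a6, Slc7a7, Slc7a8 and Slc7a11 only. In embryo Slc7a6, a carrier of dibasic and neutral amino acids, made up a median of 71.2% of the counts of these partners at 5-6 and 73.5% at 7-9 somites. In yolk sac Slc7a8 made up 67.9% and 68.3%, and Slc7a7 15.2% and 19.1%. Slc7a6 itself was lower in yolk sac by 0.30 ± 0.08 and 0.40 ± 0.07 on the log2 scale. Slc7a5, the leucine carrier of growing cells, did not pass the tissue test at either stage, with differences of 0.17 ± 0.15 and −0.01 ± 0.16. The cystine carrier Slc7a11 was counted mainly in embryo, with 390 counts there against 35 in yolk sac, and was too low for the tissue test.

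Slc3a1, the heavy chain that pairs with Slc7a9, was nearly absent where Slc7a9 was present. It had a median of 0 in both tissues at both stages and a highest normalised count of 2.85, with 59 counts over all libraries. Slc7a9 ranged from 52.96 to 338 in yolk sac. Another gene, Prepl, lies on the opposite strand at the 3′ end of Slc3a1, and the strand setting of the counting is not given, so reads of the pair might be split in a way these values cannot show.

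Other members higher in yolk sac at both stages came from several roles. Slc38a5, a system N carrier of glutamine and histidine, differed by 3.74 ± 0.13 at 5-6 and 3.54 ± 0.14 at 7-9 somites, Slc43a2 by 3.62 ± 0.10 and 3.67 ± 0.11, and Slc6a4 by 3.96 ± 0.15 and 3.97 ± 0.18. Slc38a6 had medians of 23.5 in embryo and 204 in yolk sac at 5-6 somites, a difference of 3.11 ± 0.09, and 3.32 ± 0.09 at 7-9. All 4 lysosomal members, Slc36a1, Slc36a4, Slc38a7 and Slc38a9, were higher in yolk sac at both stages. Of all genes tested, 39.3% were higher at 5-6 and 38.6% at 7-9 somites. Slc36a4 was too low for a test in embryos of 7-9 somites alone, so at that stage it entered only through the yolk sac. Slc36a1, a proton-coupled carrier of small amino acids, differed by 2.41 ± 0.12 and 2.26 ± 0.11, Slc38a7 by 1.93 ± 0.09 and 2.13 ± 0.09, and Slc38a9 by 1.81 ± 0.06 and 1.70 ± 0.07. Among members too low for the tissue test, the neutral amino acid carrier Slc6a19 had 291 counts in yolk sac and 31 in embryo, and its relative Slc6a18 had 549 and 27.

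Fewer of the tested members were higher in embryo, and the gap was smaller without the filter on low counts. Without the filter 27 members were higher and 19 lower in yolk sac at 5-6 somites, and 25 higher and 21 lower at 7-9, out of 61 and 60 members tested. In the same fits 20.7% of all genes were higher and 26.7% lower at 5-6 somites, and 21.9% higher and 30% lower at 7-9. The added embryo-high genes at both stages included the neurotransmitter and brain carriers Slc6a7, Slc6a11 and Slc6a17, as well as Slc7a2, Slc7a4 and Slc7a11. The cationic amino acid carrier Slc7a3 (chromosome X, 101079210-101086020) had a median of 47.8 in embryo (range 21.9 to 132.5) and 6.27 in yolk sac (0 to 11.3) at 5-6 somites, and the ranges did not overlap. It was lower in yolk sac by 3.07 ± 0.18 on the log2 scale at 5-6 and by 2.10 ± 0.15 at 7-9 somites, while its relative Slc7a1 was higher in yolk sac by 0.72 ± 0.11 and 0.36 ± 0.12. Of the 3 system A members, Slc38a1 was lower in yolk sac by 1.45 ± 0.08 and 1.77 ± 0.09 and Slc38a2 by 1.01 ± 0.06 and 1.22 ± 0.08. Slc38a4 was lower by 0.68 ± 0.14 at 7-9 somites, with an adjusted p of 0.211 at 5-6, where the fit with the conceptus as a block gave a call, lower by 0.45 with an adjusted p of 0.00752. Both small neutral exchangers were lower in yolk sac, Slc1a4 by 1.47 ± 0.11 and 1.76 ± 0.11 and Slc1a5 by 0.69 ± 0.09 and 1.004 ± 0.08. The glutamate carrier Slc1a2 was lower by 2.31 ± 0.19 at 5-6 somites and was too low for the test at 7-9. Without conceptus D24M15G, Slc1a2 and Slc7a2 entered the edgeR test at 7-9 somites. Slc1a2 was then lower in yolk sac by 1.73 with an adjusted p of 1.4e-13, and Slc7a2 by 1.33 with 8.5e-09. Both were too low for any test in yolk sac alone, so they could enter only through the embryo, where they were higher. Without the concepti of discordant sex Slc7a6os was called lower in yolk sac at 5-6 somites, by 0.13 with an adjusted p of 0.0499.

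Between stages, embryos changed in few members. Of 25 tested, 1 was higher at 7-9 than at 5-6 somites and 3 were lower, while 14.6% of all genes were higher and 15.2% lower. Slc7a3 fell by 1.29 ± 0.16 on the log2 scale, from a median of 47.8 to 21.4, with ranges of 21.9 to 132.5 and 5.56 to 45.0 that overlapped. Slc38a1 fell by 0.19 ± 0.06 and Slc38a9 by 0.16 ± 0.05, and Slc43a3 rose by 0.34 ± 0.10.

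In yolk sacs 8 of 32 members tested were higher at 7-9 somites and 7 lower, against 21.7% and 18.3% of all genes. With scaling by library totals only, 9 were higher and 3 lower. The carriers that rose most were Slc6a13, a carrier of GABA and taurine, by 0.65 ± 0.16, Slc6a20b by 0.50 ± 0.12, Slc7a7 by 0.50 ± 0.08, Slc43a3 by 0.42 ± 0.08 and Slc6a8 by 0.34 ± 0.11. Slc7a7 rose from a median of 115 (range 68.9 to 212) to 169 (99.2 to 241). Slc38a4, at a median of 223 (range 101 to 1161) and then 165 (75.3 to 552), fell by 0.59 ± 0.20, Slc38a1 by 0.46 ± 0.10, Slc7a5 by 0.42 ± 0.17, Slc1a4 by 0.37 ± 0.14 and Slc6a6 by 0.29 ± 0.10. With library totals only, the adjusted p was 0.0523 for Slc7a5 and 0.0518 for Slc6a6. In the same yolk sacs 8 of 10 visceral endoderm markers rose and 1, Amn, fell, while 4 of 5 primitive erythroid markers rose. The part of these markers in the differences was not tested. For Slc38a4 the sum of trophoblast and decidua markers ranged from 2.11 to 491 in diabetic and 4.67 to 239 in normal yolk sacs at 5-6 somites and from 2.51 to 735 and 0.812 to 70.2 at 7-9 somites, and its part was not tested.

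**Figure D4:**
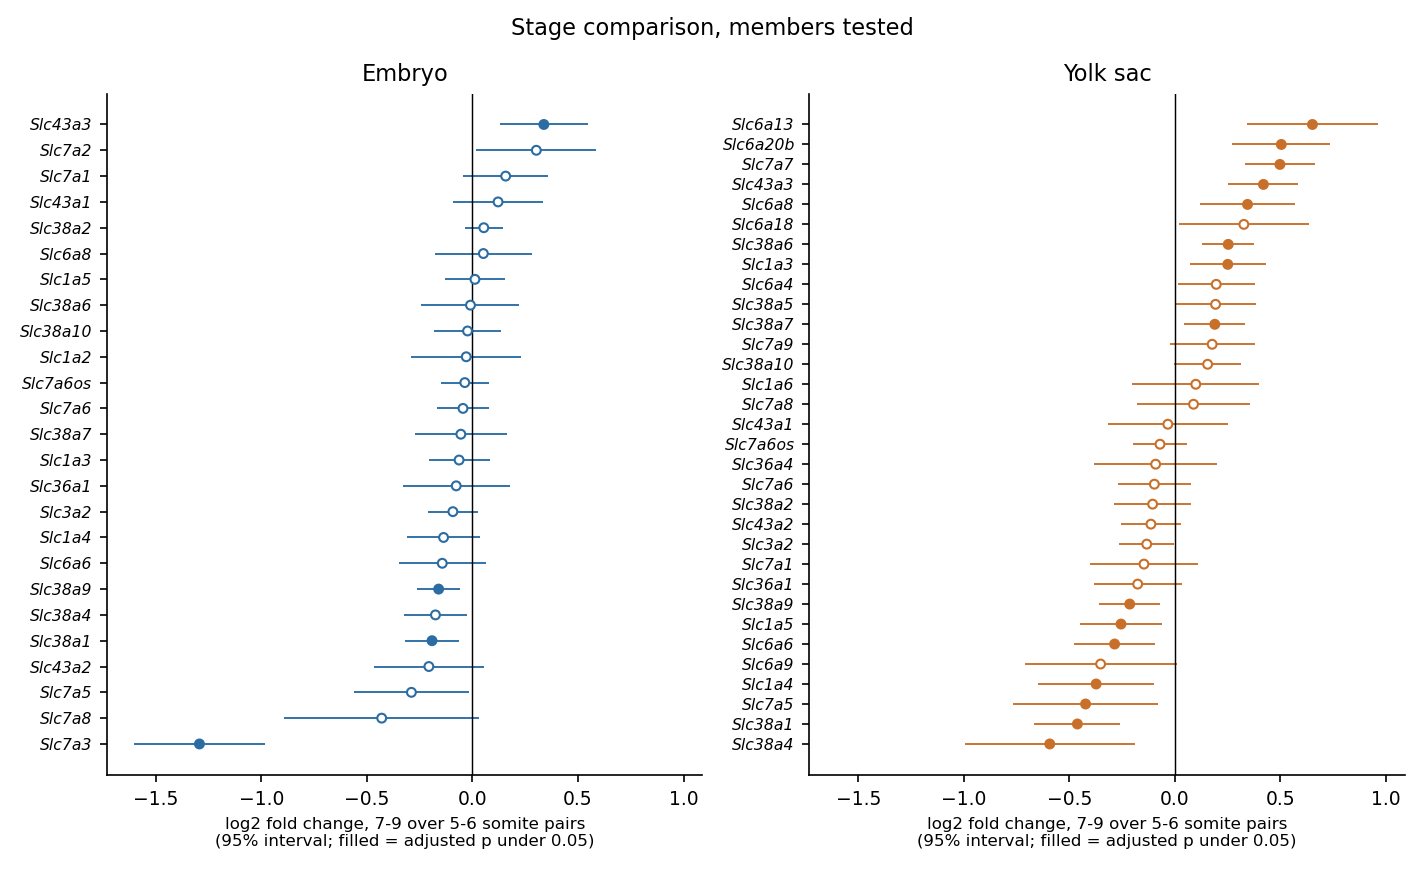
Log2 fold change of 7-9 over 5-6 somites for the members tested in embryo and in yolk sac, with 95% intervals, filled where the adjusted p was under 0.05. Slc7a3 in embryo, which fell by 1.29, lies farthest from 0.

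The tissue by stage fit tested whether the stage difference of a member differed between tissues. Of 35 members tested, 1 passed, Slc7a3, against 3.04% of all genes. Its stage difference in yolk sac exceeded that in embryo by 1.01 ± 0.26 on the log2 scale, with an adjusted p of 0.0120. In yolk sac its medians were 6.27 at 5-6 and 4.30 at 7-9 somites. Slc7a3 was too low for any test in yolk sac alone, so it could enter this fit only through the embryo.

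Maternal diabetes was compared within each tissue and stage. In embryos of 5-6 somites 25 members were tested, and 1 was higher and 1 lower under diabetes, while 0.591% of all genes were higher and 0.872% lower. Slc6a6 (chromosome 6, 91684053-91759066), the taurine carrier, ranged from 125 to 425 with a median of 223 in normal embryos and from 249 to 609 with a median of 366 in diabetic ones. The groups overlapped, and 17 of 17 diabetic embryos and the means of 9 of 9 diabetic litters lay above the normal median. The log2 difference was 0.60 ± 0.12 with an adjusted p of 0.0142. Slc1a4 (chromosome 11, 20302180-20332713), an exchanger of alanine, serine and cysteine, had medians of 46.6 (range 26.6 to 75.6) in normal and 33.2 (26.6 to 46.4) in diabetic embryos. All 17 diabetic embryos and all 9 litter means lay below the normal median, and it was lower by 0.44 ± 0.11 with an adjusted p of 0.0364.

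Both calls were lost in the fits that took littermates into account. With the litter as a random block the adjusted p was 0.101 for Slc6a6 and 0.200 for Slc1a4, and with counts summed per litter it was 0.332 and 0.276. Slc6a6 was also lost without litter D28M53, at an adjusted p of 0.0528, and without N28M06, at 0.106. Slc1a4 had an adjusted p of 0.0506 to 0.0812 without any one of D24M22, D28M02, D28M23, D28M53, N28M03, N28M05, N28M06 and N28M22. The summed neural and somitic markers had a median of 844 in diabetic and 1017 in normal embryos of this stage, and their part in these differences was not tested.

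In embryos of 7-9 somites 22 members were tested, none was higher and 2 were lower under diabetes, while 5.2% of all genes were higher and 3.89% lower. The only member higher at an unadjusted p under 0.05 was Slc38a7, and DESeq2, which applies no such filter, called Slc6a18 higher. Slc36a1 (chromosome 11, 55204350-55236330) had a median of 21.5 (range 14.6 to 35.0) in normal and 14.5 (2.78 to 23.1) in diabetic embryos, lower by 0.56 ± 0.17 with an adjusted p of 0.0315. Of 16 diabetic embryos 12 lay below the normal median and 8 below every normal embryo. Slc38a1 (chromosome 15, 96571418-96642913) had medians of 454 (337 to 535) and 355 (193 to 484), lower by 0.30 ± 0.09 with an adjusted p of 0.0389, and 13 of 16 lay below the normal median. For both genes the means of 6 of 6 diabetic litters were below the normal litter median. The lowest values of both genes, 2.78 and 193, came from conceptus D28M36C. Neural and somitic markers summed to a median of 819 in diabetic and 1036 in normal embryos. Primitive erythroid markers summed to 36.7 to 4633, with a median of 230, in diabetic and to 19.3 to 1577, with a median of 187, in normal embryos, the highest being D28M36D at 4633 and D28M23B at 3607. Visceral endoderm markers summed to 141 to 3362, with a median of 537, in diabetic and to 96.3 to 1450, with a median of 449, in normal embryos. No marker of these 3 lists was called under diabetes, and their part in the differences was not tested.

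These calls were also lost in several of the alternative fits. With counts summed per litter the adjusted p was 0.140 for Slc36a1 and 0.124 for Slc38a1, and without the 2 concepti of discordant sex it was 0.0502 and 0.0673. Without litter D28M36 it was 0.0627 and 0.0567. Slc36a1 had an adjusted p of 0.0573 to 0.0864 without any one of D28M23, D28M31, D28M36, N24M21, N28M05 and N28M07. Slc38a1 had 0.0567 to 0.0922 without any one of D28M23, D28M31, D28M36, N24M21, N24M29, N28M03, N28M05 and N28M07, 0.0660 with the litter as a random block and 0.0515 without conceptus D24M15G.

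**Figure D5:**
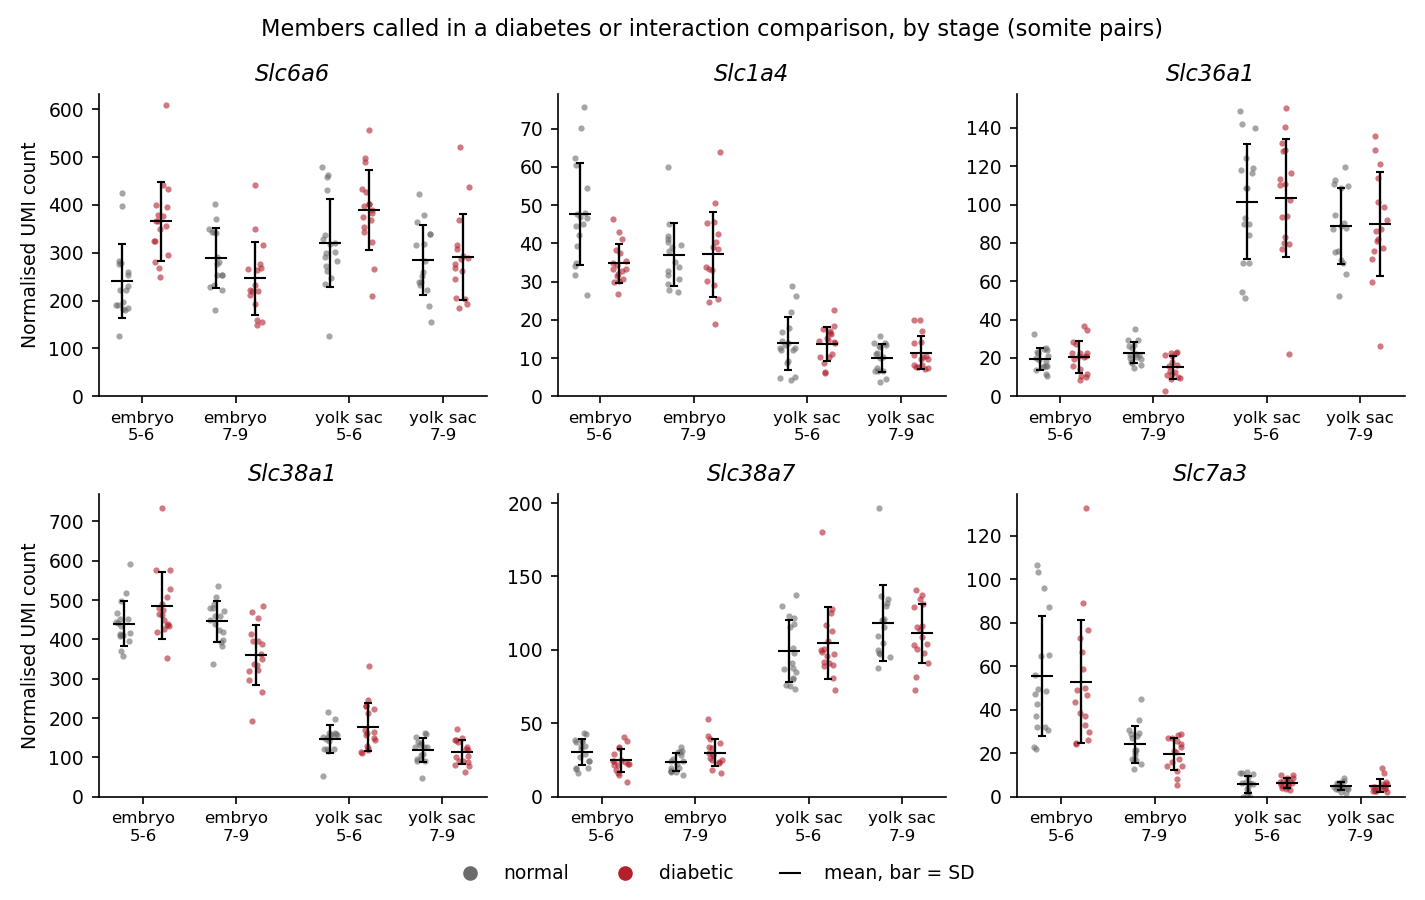
Normalised UMI count of the 6 members called in a comparison of maternal conditions or an interaction, with 1 point per library, the mean and an SD bar, by tissue, stage and maternal condition. In embryos of 5-6 somites Slc6a6 is shifted up and Slc1a4 down under diabetes, and in those of 7-9 somites Slc36a1 and Slc38a1 are shifted down, with overlap in each case.

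In yolk sacs no member was called under diabetes at either stage, among 29 tested at 5-6 and 31 at 7-9 somites. Of all genes 0% were higher and 0% lower at 5-6 somites, and 0.0194% higher and 0% lower at 7-9. Without adjustment, 2 members had a p under 0.05 at 5-6 somites and 1 did at 7-9, and DESeq2 called 0 at both stages. The 95% interval of the difference lay within 2-fold either way for 28 of 29 and 31 of 31 members. The 1 at the later stage was Slc38a2, with medians of 435 (range 336 to 556) in normal and 607 (295 to 1090) in diabetic yolk sacs, a log2 difference of 0.48 ± 0.13 and an adjusted p of 0.236. Of 16 diabetic yolk sacs 11 lay above every normal one and 2 below every normal one. The litter means ran from 366 in D28M31, with 3 concepti, to 906 in D28M24, with 1, and D24M15, with 7, had a mean of 736. Without litter D28M31 the log2 difference was 0.61 with an adjusted p of 0.0233.

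Interactions asked whether the response to maternal diabetes differed between tissues or stages. Between tissues no member passed at 5-6 somites, where 0% of all genes passed, or at 7-9 somites, where 0.389% did. Without adjustment, 1 and 5 members had a p under 0.05, and DESeq2 called 0 and 1. Between stages no yolk sac member passed, with 0% of all genes passing. Without adjustment, 1 member had a p under 0.05, and DESeq2 called 0. In embryos 3 of 25 members passed, against 8.7% of all genes. The diabetes difference of Slc6a6 was lower at 7-9 than at 5-6 somites by 0.81 ± 0.18 with an adjusted p of 0.00739. At 7-9 somites its medians were 279 (range 179 to 402) in normal and 227 (148 to 441) in diabetic embryos, with 13 of 16 diabetic embryos below the normal median. That of Slc38a1 was lower by 0.43 ± 0.12 with an adjusted p of 0.0200, and 0.0548 without the low-count filter. That of Slc38a7, a lysosomal exporter of glutamine, was higher by 0.63 ± 0.21 with an adjusted p of 0.0424, and 0.0799 without the filter, 0.0717 without the concepti of discordant sex and 0.0519 without D24M15G. For Slc38a7, 13 of 17 diabetic embryos lay below the normal median at 5-6 somites and 13 of 16 above it at 7-9.

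Genes that act beside the carriers were also followed. Of 12 tested genes of the amino acid response, 7 were higher in yolk sac at both stages, 2 were lower at 5-6 and 3 at 7-9 somites, beside 39.3% of all genes higher and 39.7% lower at 5-6 and 38.6% and 42.6% at 7-9. In embryos alone 10 genes of this list had enough counts for a test at 5-6 and 9 at 7-9 somites. The rest of the 12 were too low in embryos of that stage alone, so nothing is drawn from the counts of higher and lower genes. Phgdh and Psat1, enzymes of serine synthesis, were higher by 1.99 and 1.27 at 5-6 somites. The stress-induced mTORC1 inhibitor Ddit4 was lower by 3.25 at 5-6 and 4.09 at 7-9 somites. No gene of this list was called in the 4 comparisons of diabetic with normal. In the stage by diabetes interaction in embryos 1 of 12, Trib3, passed, where 8.7% of all genes did. Of 20 tested genes of mTORC1 amino acid sensing, 10 were higher in yolk sac at both stages and 5 and 6 were lower, shares to be read against the same percentages of all genes. Rragc was higher by 2.05 at 5-6 somites and 2.14 at 7-9, and its relative Rragb lower by 3.31 at both. Under diabetes 1 of 20, Mtor, was lower in embryos of 5-6 somites, by 0.39 with an adjusted p of 0.0379. There 0.872% of all genes were lower. In embryos of 7-9 somites 1 of 20, Lamtor4, was higher, by 0.52 with an adjusted p of 0.00302, where 5.2% of all genes were higher. These edgeR fits treat littermates as independent, and no fit by litter is given here for these 2 genes. In the stage by diabetes interaction in embryos 2 of 20, Lamtor4 and Nprl2, passed, where 8.7% of all genes did. Of 12 other carriers measured, 5 had enough counts for the tissue test, and 3 had enough in embryos alone. The rest of the 5 entered only through the yolk sac, so no count over them is drawn on. Higher in yolk sac at both stages were the aromatic amino acid carrier Slc16a10 by 3.35 and 3.36 and the lysosomal cystine exporter Ctns by 2.09 and 1.80. So were the lysosomal sialic acid carrier Slc17a5 by 1.26 and 1.099, and Cltrn, the partner that brings Slc6a18 and Slc6a19 to the membrane, by 1.74 and 1.13. The same percentages of all genes stand beside these.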

How the data were processed

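The authors sequenced embryo and yolk sac RNA with the QuantSeq 3′ FWD kit and molecular identifiers. The deposited table holds raw UMI counts, not normalised, of 47643 genes in 136 libraries. The submitters' processing notes name STAR, HTSeq and the build mm10, with versions not given in the sources used here. The strand setting of the counting is not given. Technical duplicates (4 libraries) were left out. No column of sample values was unused (0).

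Groups came from the tissue, somite stage and maternal condition in the labels. The stage of a yolk sac is that of its embryo. The quasi-likelihood test of edgeR 4.0.16 in R 4.3.3 was used after TMM scaling and filterByExpr with a minimum count of 10, with Benjamini-Hochberg adjustment over all genes tested, and an adjusted p under 0.05 was called. Tissue fits held tissue and maternal condition, stage fits stage and condition, and differences between tissues or stages were interaction terms. Levels are counts over the size factors of DESeq2 1.42.0 over the libraries used. The steps were tested on simulated data. Medians of markers and shares carry no test.

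Both tissues of a conceptus carry its label, so libraries are paired by animal, and the correlation of their deviations from the group means had a median of 0.106 at 5-6 somites (range −0.303 to 0.512) and 0.0437 at 7-9 (−0.316 to 0.368). Alternatives were a conceptus block, RLE size factors, library totals only, no low-count filter, DESeq2, the litter as a random block with limma 3.58.1, counts summed per litter, covariates, leaving out each litter and leaving out the concepti of discordant sex. Leaving out D24M15G was added after the data were seen. Members named in full were the 10 with the highest median in each tissue, the 6 most different each way between tissues, those called in a comparison of maternal conditions or an interaction, the 5 most different each way between stages, and the heavy and light chains. Slc6a18, Slc6a19, Slc7a1 and the embryo-high genes found without the filter were named after their values were seen. The members and lists were chosen with earlier results of these data known.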

Additional observations from a re-analysis of the deposited data

Results flagged for a closer look

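The response of 3 of 25 members to maternal diabetes differed between stages in embryos by an interaction term in edgeR's quasi-likelihood test. Of all genes tested, 8.7% passed. The log2 difference, 7-9 minus 5-6 somites, was −0.81 for Slc6a6, −0.43 for Slc38a1 and 0.63 for Slc38a7. The calls of Slc38a1 and Slc38a7 were lost without the low-count filter. That of Slc38a7 was also lost without the concepti of discordant sex and without D24M15G. Counts summed per litter were not run for interactions. The stage difference of Slc7a3 differed between tissues, higher in yolk sac than in embryo by 1.01 on the log2 scale. Slc7a3 was too low for any test in yolk sac alone and could enter that fit only through the embryo.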

How the results depend on the processing

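The number of members lower in yolk sac was 7 at 5-6 somites and 8 at 7-9, and rose without a low-count filter to 19 and 21 and with DESeq2 to 19 and 19; at least 2-fold lower, 5 at both stages became 17 and 15 without the filter and 16 and 14 with DESeq2. Under diabetes in embryos of 5-6 somites, members higher and lower were 0 and 0 both with a random litter block and after summing counts per litter, and lower 0 with the somite number as a covariate; leaving out 1 litter gave 0 to 1 higher and 0 to 2 lower. In embryos of 7-9 somites members higher were 1 without the filter and with DESeq2 (Slc6a18) and 1 with the title number as a covariate (Slc38a7); lower calls were added for Slc6a7 with DESeq2 (−1.44, adjusted p 0.0498) and for Slc6a6 with the title number (−0.35, adjusted p 0.0433); members lower were 1 without the filter, with the litter block and without D24M15G, 0 without the concepti of discordant sex and with counts summed per litter, and 0 to 2 when 1 litter was left out. In yolk sacs of 7-9 somites leaving out 1 litter gave 0 to 1 higher (Slc38a2, without D28M31). Members higher at 7-9 somites in embryo became 2 without the filter, and members lower at 7-9 somites in yolk sac became 3 with library totals only. The tissue by diabetes count at 7-9 somites became 1 without the filter and with DESeq2, and the stage by diabetes count in embryos became 1 without the filter. Library totals only moved the median of all genes between tissues by −0.19 at 5-6 and −0.12 at 7-9 somites. As CPM after TMM, Slc38a2 had 525 in embryo and 244 in yolk sac, and the Slc38 share in embryo over amino acid carriers only was 69.2%. No direction reversed among the alternatives run. The fit with the conceptus as a replicate block was run for the tissue comparisons and kept each count within 1.5 times the value without it, with 9 members lower in yolk sac at 5-6 somites, where Slc38a4 and Slc7a6os were added, and changed no other call. The lowest depth, 1017901 counts, limits what can be seen of low members.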

Other observations

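Conceptus D28M36C, diabetic at 7-9 somites, stood apart in several members. Its yolk sac library was the smallest, with 1017901 counts, and held a normalised count of 146 for Slc7a8, 52.96 for Slc7a9 and 26.5 for Slc36a1, the lowest of its stage, and 92.7 for Slc7a5, the highest. Its embryo had the lowest Slc36a1 and Slc38a1 of all embryos. Another yolk sac, of D28M02G at 5-6 somites, held the lowest Slc7a8 of all yolk sacs at 70.0 and the lowest Slc36a1 at 21.9. The highest Slc38a4, 1161, was in the yolk sac of D28M36B, whose trophoblast and decidua markers summed to 336 and whose visceral endoderm markers summed to 10372, the lowest of its group.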
